A study of Strongylocentrotus purpuratus with 2 samples.

Results

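The long stretches of the purple sea urchin genome in which no open chromatin was called are described here. They were defined in whole wild-type embryos of Strongylocentrotus purpuratus at 48 hours post fertilization, grown at 15 °C in artificial sea water. The data are 2 ATAC-seq peak lists, labelled replicate 1 and replicate 2 of a single group, and there is no treatment, mutant or second stage. The intervals of both lists were merged wherever they overlapped by 1 bp or more, and regions of either replicate were kept. On the 21 sequences with the largest last peak end, a stretch is a gap of 100000 bp or more between neighbouring merged regions, with the ends of the sequences left out. This gave 1407 stretches among 38686 gaps, so that 3.64% of all gaps were long enough. The stretches were chosen from the peak positions themselves, and their number, length and place are therefore described without a test. The labels do not say whether the replicates came from separate cultures, so the spread between them may be technical.

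ATAC-seq uses the Tn5 transposase, which inserts sequencing adapters where DNA is not tightly packed by nucleosomes or other proteins. Peaks mark promoters and distal regulatory elements that are accessible in enough of the cells. A sea urchin embryo of this age is at the gastrula stage and contains skeletogenic, gut, neural and ectodermal cells, and whole embryos mix them all. A long stretch with no peak can hold silent chromatin, large introns, intergenic sequence, repeats to which reads cannot be assigned, or a gap in the assembly. An element used in few cells can also be missed. Genes, repeats and assembly gaps were not used here, so the stretches are described by position and by the peaks around them, and none of these sources was tested.

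The 21 sequences span 826.5 Mb and held 38707 merged regions, out of 40621 regions on 112 sequences. Of the peaks, 95.6% in replicate 1 and 95.2% in replicate 2 lay on them. Read totals are not part of the lists. The pileup at the summit, solved from the authors' fold and p-value, had a median of 13 reads in replicate 1 and 14 in replicate 2. At such a depth a stretch without a peak is a stretch without a call and is not shown to be closed.

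The 1407 stretches covered 268.0 Mb, or 32.4% of the 21 sequences. A small share of the gaps thus took up a large share of the length. The median stretch was 153502 bp long, the middle 50% had 121070 to 214404.5 bp, and the longest had 1233461 bp. For comparison, the median of all gaps was 8039 bp and their mean was 21.1 kb. By length, 662 stretches had 100 to 150 kb, 331 had 150 to 200 kb, 254 had 200 to 300 kb, 125 had 300 to 500 kb and 32 had 500 kb to 1000 kb. Another 3 were longer than 1000 kb. At the limit, the shortest stretches had 100025, 100033 and 100053 bp and the longest gaps left out had 99915, 99933 and 99944 bp. The limit cuts through a smooth distribution, with 177 gaps in the 10000 bp above it and 269 in the 10000 bp below.

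Each replicate alone gave more stretches than the merged lists over the 21 sequences, although not on each of them: NW_022145594.1 had 124 in replicate 1 alone and 143 in the merged lists. Replicate 1 had 1718 stretches with 358.1 Mb, or 43.3% of the sequences. Replicate 2 had 1683 stretches with 328.9 Mb, or 39.8%. The mean share was 41.6% ± 2.50 (SD, n = 2). The share of the merged lists lay below both by more than this SD, as merging can only add regions.

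The same regions spread uniformly over the free length of their own sequence would leave 482.8 stretches on average, covering 62.4 Mb or 7.54% of the sequences. This expectation comes from a closed formula that keeps the number and width of the regions on each sequence. The observed number was 2.91 times and the observed length 4.30 times the uniform value. Both were lower in each replicate alone, where the number was 1.62 times the uniform value in replicate 1 and 1.998 times in replicate 2, and the length 2.42 and 2.91 times. The excess grew with length. There were 414 gaps of 200 kb or more, against 18.7 expected, and 160 of 300 kb or more, against 1.26 expected. In replicate 1 alone, 251 gaps reached 300 kb, against 12.9 expected, and in replicate 2 alone 220 did, against 4.70 expected.

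The excess in number at 100 kb was not stable, while that at 300 kb was present in every set of regions tried. With neighbours up to 1000 bp apart merged, the same 1407 stretches were 1.76 times the uniform number and 2.50 times the uniform length. With neighbours up to 10000 bp apart merged, a setting chosen after the data had been seen, they were 0.820 times that number, below the uniform value, and 1.05 times that length. At 300 kb the observed number was 4.55 times the uniform number even then. It was 5.35 times with only the regions held by both replicates, 5.62 times with the better-ranked 50% of each list and 4.30 times with peaks at a −log10 p of at least 10. In the last 3 settings the number at 100 kb was 1.02, 1.05 and 0.977 times the uniform number, and the length 1.501, 1.493 and 1.37 times. The mean gap in these settings was 45.4, 45.3 and 50.8 kb, and its part in these values was not tested.

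**Figure D1:**
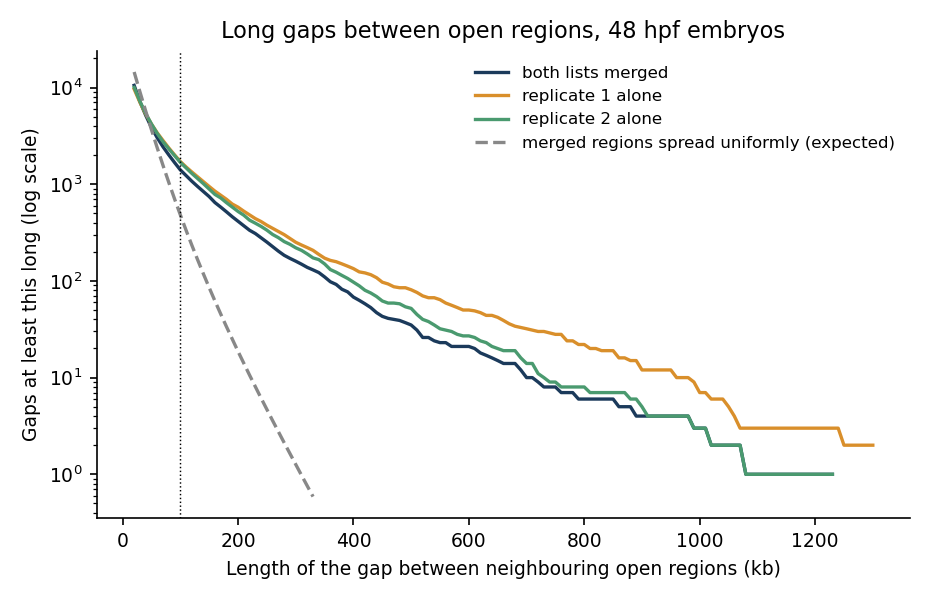
Number of gaps between neighbouring open regions (log axis) that are at least as long as the value on the x axis (kb), for both lists merged, each replicate alone, and the merged regions spread uniformly over each sequence. The dotted line marks 100 kb. Beyond it the 3 observed curves fall slowly and the uniform curve steeply: 160 merged gaps reach 300 kb against 1.26 expected. The x axis ends at 1300 kb, short of the longest gap of replicate 1.

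The share of a sequence taken up by stretches differed widely. It was highest on NW_022145606.1, where 133 stretches made up 61.1% of 52.4 Mb, and on NW_022145594.1, where 143 stretches made up 56.9% of 53.0 Mb. Next came NW_022145602.1 with 43.5%, NW_022145603.1 with 41.3%, NW_022145604.1 with 40.6% and NW_022145607.1 with 40.3%. The median of the 21 sequences was 30.8%, on NW_022145605.1. The lowest shares were 13.3% on NW_022145613.1 with 33 stretches, 14.6% on NW_022145611.1 with 44, and 18.4% on NW_022145615.1 with 35.

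The order of the sequences was nearly the same in both replicates. NW_022145606.1 was first with 73.2% in replicate 1 and 67.8% in replicate 2, and NW_022145594.1 was second with 66.6% and 62.0%. NW_022145611.1 was last in both, with 21.2% and 19.7%. Across the 21 sequences the rank correlation between the replicates was 0.975, given as a description, since the sequences share 2 libraries. The gap between the highest and the lowest sequence was far larger than that between the replicates. Neighbours in the order did not always differ by more than the replicates did: NW_022145596.1 had 34.4% in replicate 1 and 29.1% in replicate 2, and NW_022145595.1 had 31.1% and 29.6%.

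The share followed the density of regions, with a rank correlation of −0.979 over the 21 sequences. Both measures come from the same positions. Every sequence had more stretches than a uniform spread gives in the merged lists, from 1.16 times on NW_022145606.1 to 13.0 times on NW_022145611.1. In replicate 1 alone 19 of 21 sequences lay above 1 and in replicate 2 alone 20 of 21 did. The sequences that fell short were NW_022145606.1, with 0.815 in replicate 1 and 0.971 in replicate 2, and NW_022145594.1, with 0.826 in replicate 1. The 2 sequences with the fewest regions per Mb, NW_022145606.1 and NW_022145594.1, held 276 stretches, against 197.6 expected, and the other 19 held 1131, against 285.2 expected. They hold 12.8% of the sequence length and 23.2% of the stretch length.

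This order of excess depended on the fixed limit of 100 kb. The mean gap ran from 14.8 kb on NW_022145611.1 to 42.0 kb on NW_022145606.1, so 100 kb is many mean gaps on the first and few on the second. When the limit was set to 5 times the mean gap of each sequence, a choice made after the data had been seen, 1309 gaps passed it, against 259.6 expected. All 21 sequences then had an excess, from 3.93 times on NW_022145615.1 to 7.56 times on NW_022145594.1, and NW_022145606.1 came second highest with 7.10 times. The rank correlation of the excess with the density of regions turned from 0.979 at 100 kb to −0.869. On this scale the peak-poor sequences were the most unevenly filled.

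**Figure D2:**
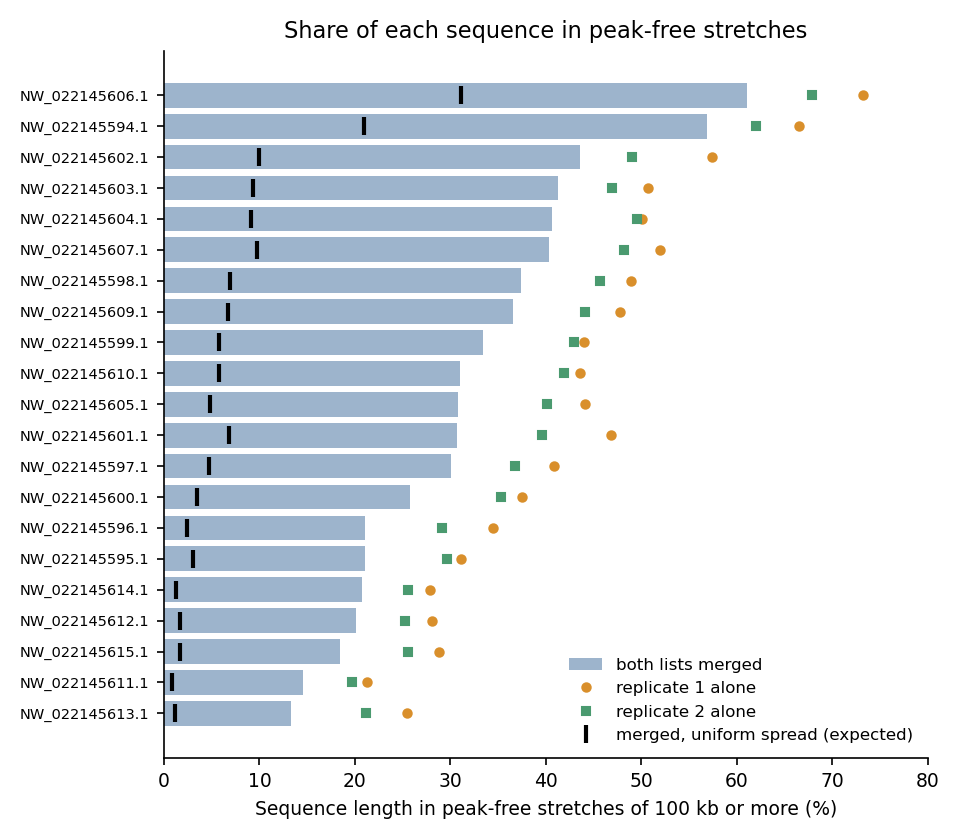
Percentage of each of the 21 sequences in peak-free stretches of 100 kb or more, for both lists merged (bars), each replicate alone (points) and the merged regions spread uniformly (black ticks). Bars run from 61.1% on NW_022145606.1 to 13.3% on NW_022145613.1, each lies right of its tick, and the points of both replicates lie right of the bar on every sequence.

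The 10 longest stretches lay on 6 sequences and made up 9.04 Mb. Positions count from 1 along each named sequence, and the build is not given in the sources used here. The longest spanned bases 1142879 to 2376339 of NW_022145603.1. It had 1245421 bp in replicate 1 alone and 1233461 bp in replicate 2 alone, so the lists nearly coincide there. The second spanned 24126757 to 25201448 of NW_022145602.1, with 1074692 bp. In replicate 1 alone it was part of a stretch of 1901487 bp, the longest in either list, and in replicate 2 alone it had 1074692 bp. The third spanned 50019 to 1069122 of NW_022145606.1, with 1019104 bp, and had 1019523 bp in replicate 1 and 1019104 bp in replicate 2.

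Of the other 7, NW_022145602.1 held a stretch of 981122 bp at 15632317 to 16613438. NW_022145606.1 held 886195 bp at 34137686 to 35023880, 854119 bp at 1496090 to 2350208 and 721562 bp at 48897590 to 49619151. The last 3 were 786583 bp at 317681 to 1104263 of NW_022145604.1, 759485 bp at 2343316 to 3102800 of NW_022145607.1 and 719551 bp at 2021933 to 2741483 of NW_022145601.1. By construction each of the 10 has at least this length in either replicate alone.

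The 20 regions at the edges of these 10 stretches had low summits compared with the medians of 13 and 14 reads over all peaks. A merged region counts as held by both replicates when it contains peaks of each; 7 were so held, while 5 were in replicate 1 alone and 8 in replicate 2 alone. The pileup at their summits ran from 7 to 18 reads with a median of 8.5 in replicate 1, where 12 of them had a peak. It ran from 6 to 22 reads with a median of 9 in replicate 2, where 15 had a peak. The median over the edge peaks of all stretches was 11 reads in each replicate. Peaks away from edges with no other summit of their list within 20 kb also had a median of 11. Any weak peak that falls in an otherwise empty stretch becomes an edge by definition. The strongest edge, at 1495793 to 1496089 of NW_022145606.1, had an enrichment of 11.4-fold in replicate 1, against 12.7-fold in replicate 2, over the local background. The right edge of the second longest stretch, at 25201449 to 25201548 of NW_022145602.1, reached 3.86-fold and 6 reads in replicate 2, where it ranked 31791 of 32554 peaks, and had no peak in replicate 1.

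Stretches were grouped along the sequences. In 206 cases 2 stretches were neighbours with a single merged region between them, against 69.1 for a random order of the same gaps within each sequence, which is 2.98 times as many. Each of the 21 sequences had more such pairs than its random order gives, but some by very few pairs. NW_022145595.1, NW_022145615.1 and NW_022145613.1 had 1 pair each, against 0.855, 0.571 and 0.419. Replicate 1 alone had 291 pairs against 131.0, and replicate 2 alone had 289 against 113.9, or 2.22 and 2.54 times. In the other settings tried the ratio ran from 1.52 with peaks at a −log10 p of at least 10 to 3.77 with stretches of 200 kb or more, so it stayed above 1 in all of them. The gap next to a stretch had a median of 17886 bp, against 8039 bp for all gaps, and it was itself a stretch in 14.7% of cases, against 3.64% of all gaps. Unlike the random order, these last values pool the 21 sequences and so include the differences between them.

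Between successive stretches of a sequence lay 1386 islands of merged regions. A single region made up 206 of them, 2 regions made up 149, 3 to 9 regions made up 404 and 10 or more made up 627. The last class held 92.6% of all regions between stretches, and the largest island had 450 regions. The small islands had the lowest shares: 28.2% of the single regions were held by both replicates, 34.2% of the regions in islands of 2, 36.7% in islands of 3 to 9 and 47.0% in islands of 10 or more. The share held by both replicates was 46.3% over all merged regions of the 21 sequences. In 277 islands no region was held by both replicates, so the stretches on either side would join if only such regions were counted.

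Joining stretches across islands of under 10 kb gave 220 chains of at least 2 stretches, with 519 stretches or 36.9% of all. The chain with most stretches, 7, spanned 1871347 bp at 13468170 to 15339516 of NW_022145594.1. It was 99.8% peak-free and had 8 regions inside, 2 of them in both replicates. A chain of 5 stretches followed at 15357111 to 16960055 of the same sequence, with 5 regions inside and 0 in both replicates. With islands of under 50 kb these became parts of a single chain of 15 stretches, at 12467458 to 16960055, or 4.49 Mb. It held 29 merged regions, or 6.46 per Mb, from 12 peaks of replicate 1 and 26 of replicate 2. Of these regions 7 were in both replicates, and the highest summit reached 34 reads.

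The longest run of stretches with only a single region between each had 5 members and lay on NW_022145598.1, at 32839639 to 33731568. The stretches had 188467, 183213, 154697, 166294 and 198647 bp. All 4 regions inside the run were peaks of replicate 2 that replicate 1 lacked, so in replicate 1 alone the run was undivided. Runs of 2 numbered 137, runs of 3 numbered 22, runs of 4 numbered 7, and 1034 stretches had no neighbour of their kind.

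Seen in windows of 1 Mb, stretches filled 90% or more of 20 of 819 windows, on 10 sequences, and 11 of these were on NW_022145606.1 and NW_022145594.1. No window was filled completely. In 125 windows there was no part of a stretch, and their median was 75 regions. Along the sequences the share in stretches was lower towards the ends, where the outermost gaps are not counted, than in the middle. It was 31.0% in the first 10% of the length and 29.98% in the last, and over the 10 such parts it ran from 27.5% to 36.02%. Each part from 30% to 80% of the length had 33.4% or more, and each other part 31.9% or less. The parts ran from 38.5% to 47.8% in replicate 1 alone and from 35.7% to 43.1% in replicate 2 alone.

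**Figure D3:**
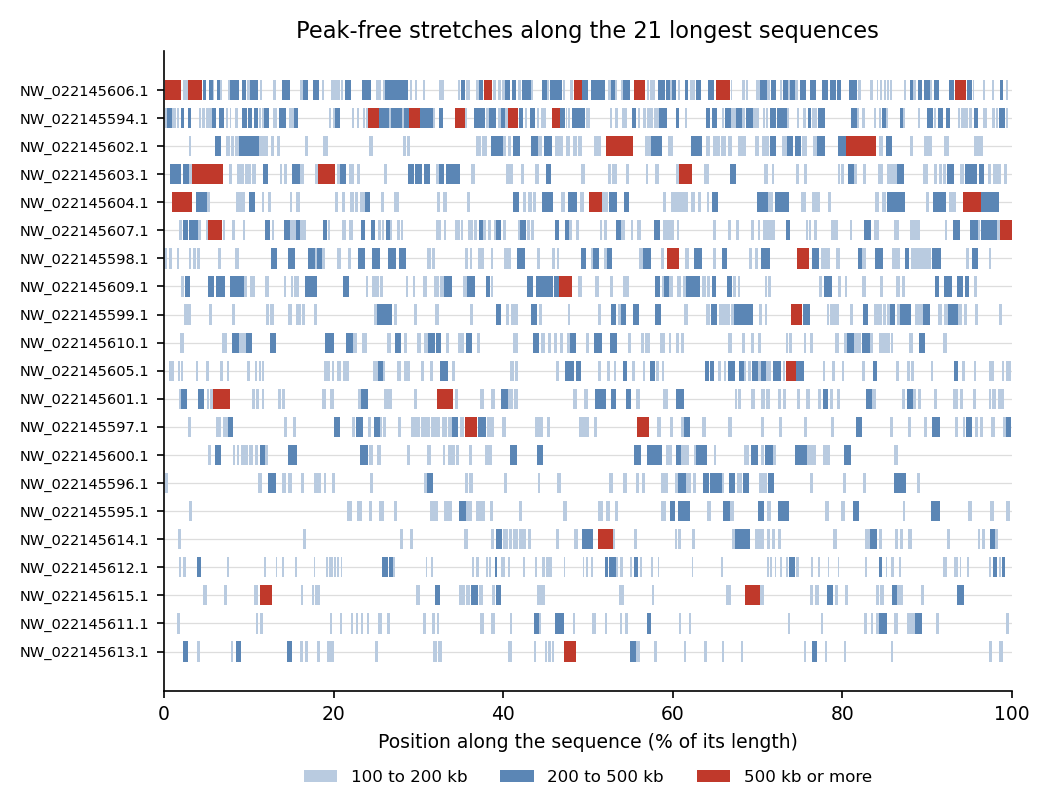
Position of the 1407 stretches along the 21 sequences, in percent of the length of each sequence (x axis), coloured by stretch length. Sequences are ordered from the highest share in stretches (top) to the lowest (bottom). Stretches of 500 kb or more (red) lie on 15 sequences, and the chain of 15 stretches on NW_022145594.1 appears as a nearly continuous block.

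How far the stretches of a single list recur in the other was asked by defining them in 1 replicate alone and counting the peaks of the other. Places to which no read can be assigned would be empty in both lists. The count therefore describes the match of the lists and cannot tell such places from closed chromatin. Inside the 1718 stretches of replicate 1, replicate 2 had 2719 peaks, or 7.59 per Mb, against 60.4 per Mb outside them. Inside the 1683 stretches of replicate 2, replicate 1 had 1586 peaks, or 4.82 per Mb, against 53.4 per Mb outside. The density inside was thus 0.126 and 0.0903 times that outside, a mean of 0.108. With the better-ranked 50% of the measured list the mean was 0.0366. A peak that overlaps a peak of the other list cannot lie wholly inside such a stretch. Away from edges of the merged lists, 69.5% of replicate 1 peaks and 61.8% of replicate 2 peaks were in both lists. Between the best 10% and 50% these shares were 90.3% and 85.2%. The ratios and their drop with rank therefore cannot be separated from this exclusion. The other replicate had no peak at all in 516 stretches of replicate 1 (30.03%) and in 791 stretches of replicate 2 (47.0%).

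Longer stretches held fewer peaks of the other replicate per Mb. In stretches of 100 to 150 kb of replicate 1, replicate 2 had 11.0 peaks per Mb, and in those of 500 kb or more it had 4.07. In stretches of replicate 2 the density of replicate 1 peaks was 7.66 per Mb in the shortest class and 1.51 in the longest. Longer stretches were not more often empty in the other list. Of the 52 stretches of replicate 2 with 500 kb or more, 24 had no peak of replicate 1, or 46.2%, against 45.6% in the shortest class. Of the 81 such stretches of replicate 1, 10 had no peak of replicate 2, or 12.3%, against 33.8% in the shortest class.

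Peaks found inside were weak, as were peaks that the other list lacked in general. A peak inside lies where the defining list had no peak, so it is of this kind almost by definition. Such peaks at no edge had a median pileup of 9 reads in replicate 1 and 10 in replicate 2. Of them, 54.3% and 49.5% had at most 120 bp. The pileups and widths below therefore cannot be told apart from a trait of unshared peaks. The median pileup was 9 reads inside and 15 outside for replicate 2, and 8 inside and 14 outside for replicate 1. Peaks of at most 120 bp made up 50.8% inside and 25.5% outside for replicate 2, and 56.6% inside and 26.6% outside for replicate 1. Strong exceptions were few, but 99.7% of the strongest 10% away from edges were in both lists in each replicate. Among the strongest 10% of each list, 5 peaks of replicate 2 lay inside stretches of replicate 1 and 6 peaks of replicate 1 lay inside stretches of replicate 2. In length, the stretches of both replicates had 277.4 Mb in common, which is 77.5% of those of replicate 1 and 84.3% of those of replicate 2.

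**Figure D4:**
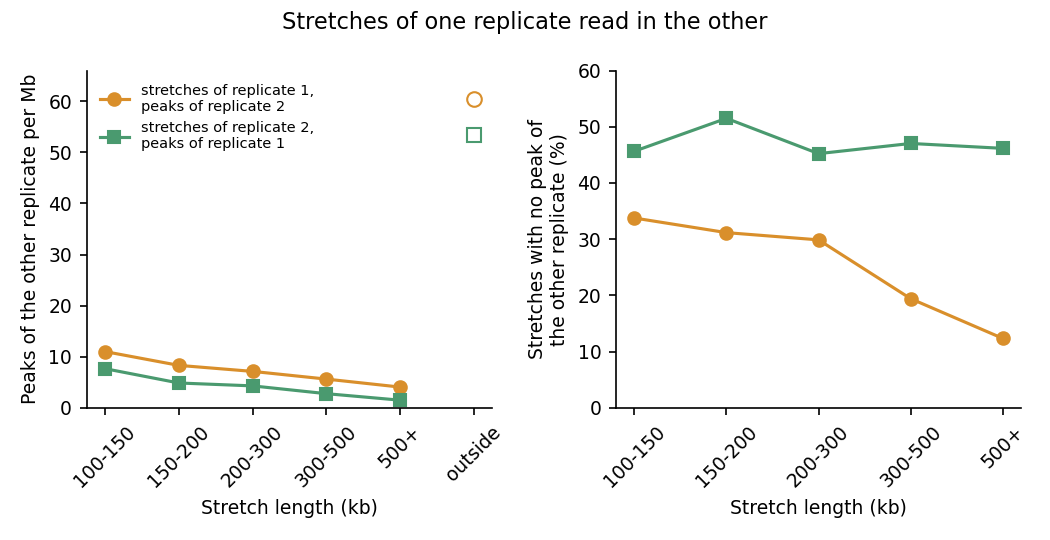
Left, peaks of the other replicate per Mb inside stretches defined in 1 replicate, by stretch length in kb, with the density outside all stretches as open symbols. Right, percentage of those stretches with no peak of the other replicate. Densities fall from 11.0 to 4.07 and from 7.66 to 1.51 per Mb with length, far below the 60.4 and 53.4 per Mb outside. From the shortest to the longest class, the share with no peak goes from 33.8% to 12.3% for stretches of replicate 1. For stretches of replicate 2 it is 45.6% and 46.2%.

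The regions at the edges differed from the other regions. Of the 2608 merged regions at an edge, 969 were held by both replicates, or 37.2% (95% Wilson interval 35.3 to 39.0%). Of the 36099 regions at no edge, 16970 were, or 47.0% (46.5 to 47.5%). These intervals cover counting error only, since regions are not replicates. Regions with a stretch on either side were lowest, at 28.2% (22.5 to 34.7%, 206 regions). In the merged lists any peak of either replicate that falls in an otherwise empty stretch becomes an edge. The difference was also present without merging. In a single list, too, a lone peak in an otherwise empty stretch becomes an edge. The following shares therefore cannot separate a trait of edges from this selection. Of the edge peaks of replicate 1 stretches, 60% were found in replicate 2, against 70.2% of its other peaks, and of those of replicate 2, 51.6% were found in replicate 1, against 62.1%.

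Isolated regions had low shares whether or not they lay at an edge. Regions with gaps of at least 20 kb on either side were held by both replicates in 34.1% of cases at an edge (95% Wilson interval 31.4 to 36.9%) and in 38.9% away from edges (37.0 to 40.8%). Sorted by the longer of the gaps beside them, the regions were held by both in 41.9% of cases with a gap under 1 kb, 51.0% with 1 to 10 kb, 46.4% with 10 to 50 kb, 40.1% with 50 to 100 kb, 37.5% with 100 to 200 kb and 36.4% with 200 kb or more. On either side of the 100 kb limit, the intervals of the classes from 100 to 200 kb (35.3 to 39.8%) and from 50 to 100 kb (38.7 to 41.6%) overlapped.

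Edge peaks had fewer reads at the summit than the rest of their list, but so did other isolated peaks. The median pileup was 11 reads at edges and 14 elsewhere in replicate 1, and 11 at edges and 15 elsewhere in replicate 2. Against other isolated peaks, those with no second summit of their list less than 20 kb away, little of this was left: isolated edge peaks had a median of 10 reads and other isolated peaks 11 in each replicate. The authors' fold had a median of 5.98 at edges and 5.58 elsewhere in replicate 1, and 5.52 at edges and 5.37 elsewhere in replicate 2. Among isolated peaks the medians were nearly equal, with 6 at edges and 5.96 elsewhere in replicate 1, and 5.52 in either class in replicate 2. By −log10 p the edge peaks ranked in the middle of their lists, at a median of 50.7% and 53.1% from the top, against 50.1% and 49.6% for other peaks. Peaks of at most 120 bp were more frequent at edges, with 35.8% against 27.8% in replicate 1 and 33.4% against 27.3% in replicate 2. Of the isolated peaks of replicate 1, 57.2% at edges and 59.6% elsewhere were in both lists, and of those of replicate 2, 45.1% and 52.2%. The shares by rank compare edge peaks with all other peaks, isolated or not. Among the peaks ranked between the best 10% and the best 50% of replicate 1, 82.1% of edge peaks (79.1 to 84.8%) and 90.3% of other peaks (89.7 to 90.8%) were in both lists. In replicate 2 the shares were 75.1% (71.9 to 78.1%) at edges and 85.2% (84.5 to 85.8%) elsewhere. Between the best 50% and 90% they were 44.5% at edges and 51.9% elsewhere in replicate 1, and 30.8% at edges and 38.8% elsewhere in replicate 2, again with separate intervals. Among the strongest and the weakest peaks the difference was small or within the intervals. In the best 10% the shares were 97.9% at edges and 99.7% elsewhere in replicate 1, and 100% at edges and 99.7% elsewhere in replicate 2. In the last 10% they were 23.3% (17.2 to 30.8%) at edges and 27.6% (26.0 to 29.3%) elsewhere in replicate 1, and 13.7% (9.39 to 19.6%) at edges and 20.2% (18.8 to 21.7%) elsewhere in replicate 2.

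The local background, which was solved from fold and p and reflects reads around a peak, fell towards the long stretches. It was compared at isolated peaks. At such peaks the mean was 0.906 extended reads per base at edges and 1.15 elsewhere in replicate 1, and 1.04 at edges and 1.33 elsewhere in replicate 2. The ratio was 0.788 and 0.781, a mean of 0.785 ± 0.00523 (SD, n = 2). With a longer gap of 20 to 50 kb beside the peak the mean background was 1.20 in replicate 1 and 1.39 in replicate 2, and with 200 kb or more it was 0.856 and 0.977. The most frequent background in these lists was 0.671 in replicate 1 and 0.813 in replicate 2, and it was taken as the lowest level. A background at about this level or below was found at 46.6% of isolated edge peaks and 20.97% of other isolated peaks in replicate 1. In replicate 2 it was found at 55.9% and 26.4%. Fewer reads were thus counted around peaks near the stretches, and what lowers that number was not tested.

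**Figure D5:**
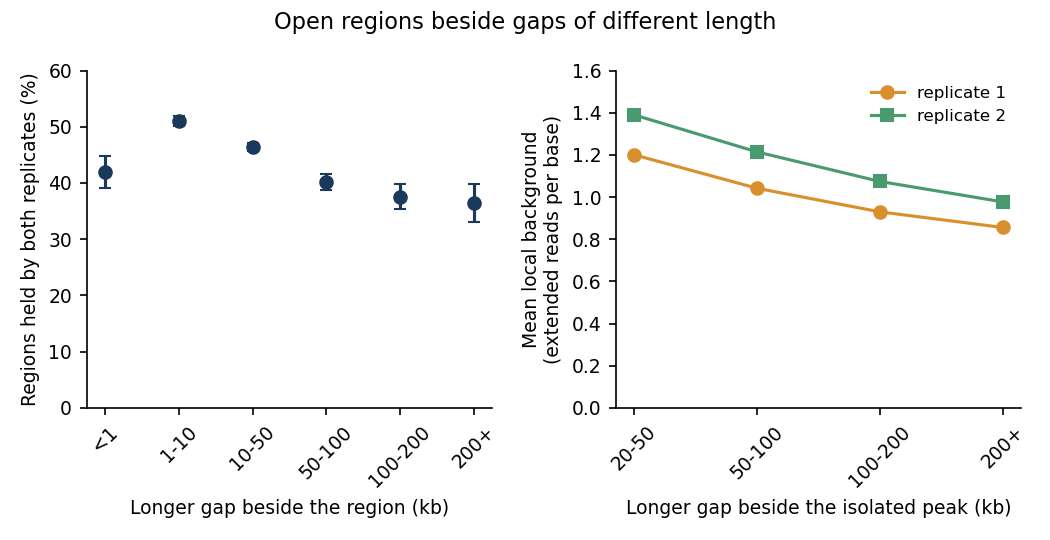
Left, percentage of merged regions held by both replicates with 95% Wilson intervals, by the longer of the 2 gaps beside the region (kb). Right, mean local background (extended reads per base) at isolated peaks, with the nearest summit 20 kb or more away, by the same gap. The share falls from 51.0% at 1 to 10 kb to 36.4% at 200 kb or more, and the background is 1.20 (replicate 1) and 1.39 (replicate 2) in its first class, against 0.856 (replicate 1) and 0.977 (replicate 2) in its last.

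Outside an edge the regions were sparser than beside regions in general, edge regions included. Within 50 kb beyond the edge region there were 2.03 further regions on average, against 3.79 on the sides of all regions and 2.34 for a uniform spread. In 27.2% of edges there was no further region within 50 kb, against 10.01% of all sides. Within 10 kb the mean was 0.576 regions, against 0.936 on all sides, and above the 0.468 of the single uniform density.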

How the data were processed

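Open chromatin was measured by ATAC-seq in 2 samples of whole embryos, of 1 group. Bowtie2, SAMtools and MACS2 are named in the submitters' processing notes, without versions or settings, and the build is not given in the sources used here. The deposited lists give each peak a fold (a ratio of pileup to background), a −log10 p, a −log10 q and a score. In 100% of peaks the score in the deposited lists equals −log10 q multiplied by 10 and rounded down. Peak names in each list carry that sample's own name, so peaks were taken as called per sample.

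Members and lists were chosen with earlier results of these data known. Intervals were merged at 1 bp overlap, and gaps of 100000 bp or more on the 21 longest sequences were kept. Sequence length is the last base of a peak, a lower bound. The expected number of n gaps of length L or more in a free length F is n(1 − L/F) to the power n − 1, per sequence. The expected number of neighbouring pairs among m stretches in n gaps is m(m − 1)/n. Pileup and background were solved from fold and −log10 p, with a tolerance of 5e-05, for 29456 of 29456 and 32554 of 32554 peaks. The formula used was fold = (pileup + 1)/(background + 1), and p was the Poisson tail above the pileup. The formulas and code were checked on simulated data. Regions named are the 10 longest, those next to the limit, and the longest run. The widest chain across islands under 50 kb was chosen after its values were seen. No p-value was computed, as there is 1 group and regions are not replicates. Python 3.11.15, numpy 2.4.6, pandas 2.3.3, scipy 1.17.1 and matplotlib 3.10.9 were used. The planned results on genes, N bases and GC content were not computed, since the gene table used gives no named nuclear sequence.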

Additional observations from a re-analysis of the deposited data

Results flagged for a closer look

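The sequences outside the 21 longest were not part of the description, and they also held long stretches. On these 91 sequences, which span 74.5 Mb with 1914 merged regions, there were 191 stretches of 100000 bp or more, on 53 of them. A uniform spread gives 135.1. They covered 33.1 Mb, or 44.4% of that length, and the longest had 514989 bp. These values are given because they come from data left out of the report. Groups of 4 or more samples, in which a single sample could stand apart, do not exist here.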

How the results depend on the processing

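Values that differed from the reported ones by over 1 SD between replicates, or for the number of stretches by over 1.5 times, were as follows. The number of stretches was 2161 with a −log10 p of at least 10, 3864 at 50 kb or more and 414 at 200 kb or more. The share of the sequences was 56.7% with regions held by both replicates, 55.8% with the better-ranked 50%, 58.7% with a −log10 p of at least 10, 52.97% at 50 kb and 15.8% at 200 kb. Over the uniform number, in the same order, the stretches were 1.02, 1.05, 0.977, 1.06 and 22.2 times as many, 1.76 and 0.820 times with neighbours up to 1000 and 10000 bp apart merged, and 3.97 times without NW_022145606.1 and NW_022145594.1. Neighbouring pairs over a random order were 1.76, 1.61, 1.52, 1.89 and 3.77 times as many in those first 5 settings, and 2.11 times with 10000 bp. Edge regions were found in both replicates in 77.1% with the better-ranked 50%, 81.8% with a −log10 p of at least 10 and 53.1% with 10000 bp. The share of the other regions is not given for these settings, so these values do not show whether the difference at edges remained. With only regions held by both replicates the share at edges is 100% by construction. With either replicate left out, the number ran from 1683 to 1718, the share from 39.8% to 43.3%, the ratio to uniform from 1.62 to 1.998 and the pairs from 2.22 to 2.54 times. The edge share was then 51.6% to 60%, but of the edge peaks of 1 list found in the other. It is not the same measure as the share of merged edge regions. For other peaks it was 62.1% and 70.2%. Islands under 10 kb were 21.6% of all islands; they were 28.5%, 27.4%, 29.2%, 31.5% and 11.96% in the 5 settings above and 23.1% to 24.5% with either replicate left out, while islands under 2 kb were 19.05% and those under 50 kb 32.0%. The density of the other replicate inside stretches was 0.108 times that outside and 0.0366 times with its better-ranked 50%. The median rank of edge peaks was 45.4% by fold in place of 51.9%, and the background at edges was 0.785 times that of other isolated peaks in place of 0.885 times when edge peaks with close neighbours were left in. The cause of these moves was not tested. Values already known led to the choice of the 10000 bp merging, the limit scaled to the mean gap, the edges of single lists and the omission of 2 sequences. Alternatives for genes and sequence were not run. No paired analysis was possible because the samples form a single group.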

Other observations

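The longest stretches were chosen for this closer look after their values had been seen. Of the 35 stretches of 500 kb or more, 9 were centred in the first or last 10% of their sequence, or 25.7%, against 17.8% of all 1407 stretches. For stretches of 500 kb or more it was 16 of 81, or 19.8%, in replicate 1 alone and 14 of 52, or 26.9%, in replicate 2 alone. Of the 160 merged stretches of 300 kb or more, 29 were centred there, or 18.1%, close to the share of all stretches. The orientation of the sequences and their true ends are not known from the lists. The first merged region began past base 100000 on 5 of the 21 sequences, at 489934 at the latest on NW_022145609.1, and these leading ends are not counted among the stretches.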
